A study of Mus musculus with 22 samples.

Results

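Expression of 10 genes of adipose progenitors and activated fibroblasts, Pdgfra, Pdgfrb, Dpp4, Pi16, Ly6a, Fap, Postn, Cilp, Acta2 and Tagln, was followed in inguinal white adipose tissue (IWAT), a subcutaneous fat pad, beside and away from a breast tumor. They were chosen by symbol, from what they are known to mark and with earlier results of these data known. They are 10 of the 23420 genes in the count table. All 10 passed the filter on low counts that left 14458 genes for testing. The 22 RNA-sequencing libraries came from 11 female wildtype C57Bl/6 mice, 5 lean mice on regular chow and 6 obese mice on a high fat diet (HFD) for 16 weeks. E0771 cells, a breast cancer line of this mouse strain, were injected in PBS and Matrigel into the left pad, and the right pad of the same mouse received PBS and Matrigel alone. Both were collected 2 weeks later, from mice about 20 weeks old at transplantation. The groups were lean control, lean tumor-associated (5 libraries each), obese control and obese tumor-associated IWAT (6 libraries each). Matrigel was thus present in every pad, and no pad was left without an injection. According to the methods the inguinal lymph node and the fat sheet next to the tumor were removed.

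Adipose tissue holds fibroblast-like progenitors next to its fat cells. The receptors PDGFRA and PDGFRB mark these progenitors, and PDGFRB also marks the pericytes that wrap small vessels. Progenitors carrying DPP4 and PI16 lie in the fibrous sheets of the pad and can give rise to committed preadipocytes, while tissue injury and tumors are known to drive fibroblasts towards a matrix-secreting, contractile state in which FAP, periostin, CILP and smooth muscle actin are made.

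Each library held between 5759775 and 8598108 counts on genes. The 10 genes were well sampled: 31 counts of Pi16 in the tumor-associated pad of obese mouse 4 and 28 of Cilp in the control pad of lean mouse 6 were among the lowest. The library labels were checked against cell markers. Summed CPM, counts scaled to libraries of equal size, of 7 fibroblast genes lay between 1954 and 4567 in all libraries, and fat cell markers summed to between 1670 and 21828 CPM. The tumor-associated library of obese mouse 4 had the lowest sum of its group for adipocyte (1670 CPM), fibroblast (1954 CPM), endothelial (272 CPM) and macrophage (1443 CPM) markers. Markers of B cells summed to 432 and 400 CPM in the obese control libraries of mice 1 and 3 and to just over 100 CPM in the obese tumor-associated library of mouse 3, and to at most 48.5 CPM elsewhere. The same control library of mouse 1 held 818 CPM of skeletal muscle markers. Results are therefore also given without mouse 4 or without those 3 libraries where it matters.

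Levels were normalized by the length of all annotated exons of a gene joined, which can exceed the length of a single transcript. The order between genes depends on that choice. On this scale the 10 genes covered a wide range in lean control IWAT. Acta2 was highest at 129 ± 26.4 CPM per kb of exon (SD, n = 5). It was followed by Ly6a, Postn and Tagln, then by Pdgfra, Pdgfrb, Pi16, Dpp4 and Fap, and Cilp was lowest at 3.52 ± 2.18 CPM per kb. In that order each gene overlapped with its neighbour except Tagln, whose libraries all lay above those of Pdgfra. Ly6a moved to the top of both tumor-associated groups, at 276 ± 119 CPM per kb in lean and 204 ± 40.9 CPM per kb in obese mice (n = 6), where it overlapped with Acta2 and with Postn, respectively. Cilp was at rank 8 in lean tumor-associated, at rank 9 in obese control and at rank 5 in obese tumor-associated IWAT, the last with 41.2 ± 15.3 CPM per kb.

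**Figure D1:**
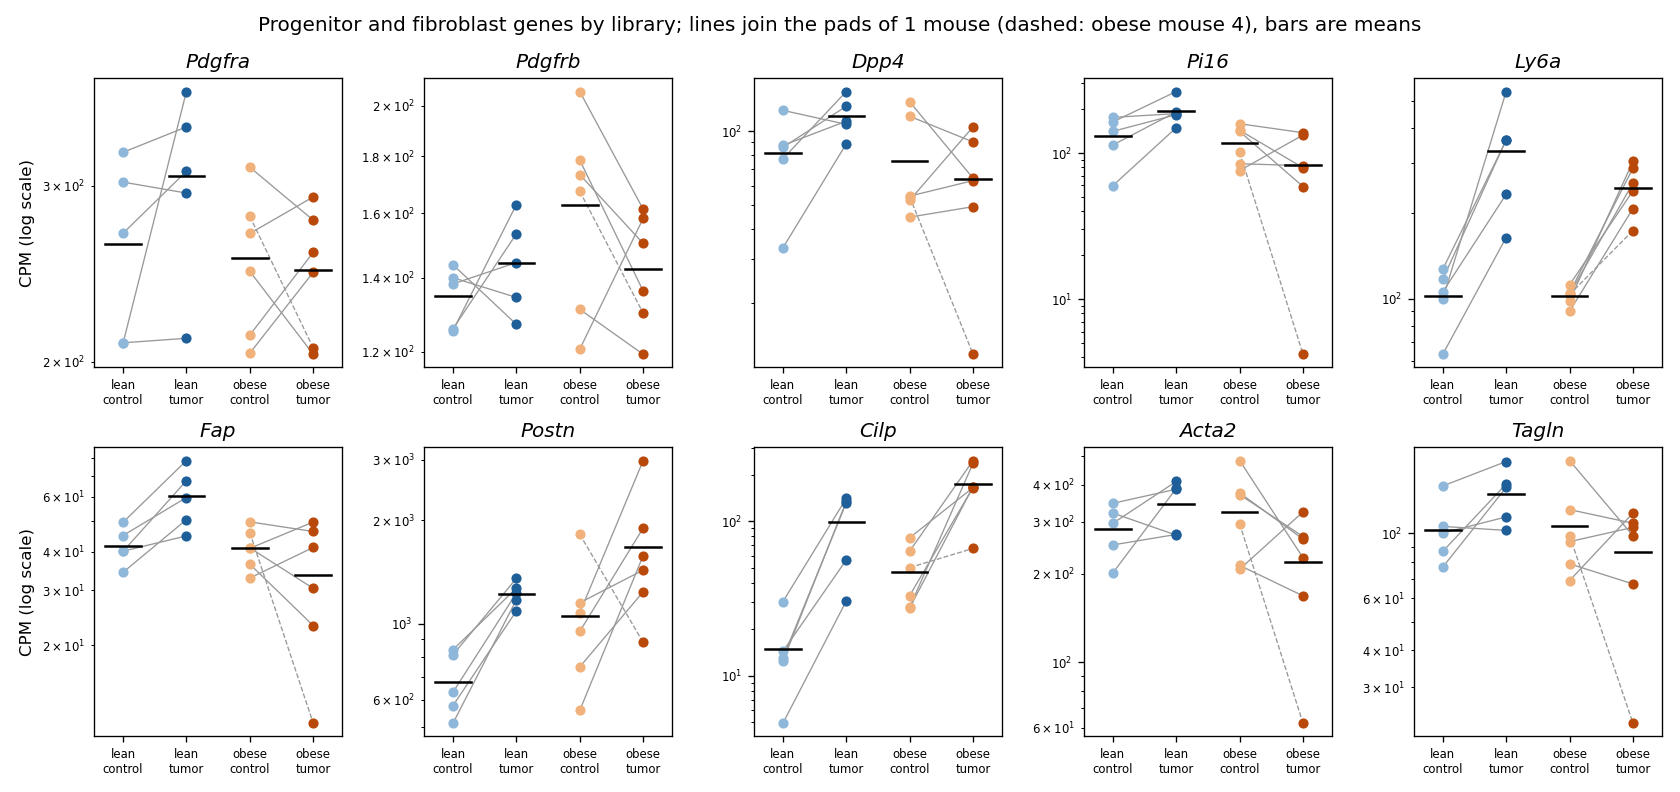
CPM (log axis, a different range in each panel) of the 10 genes in the 22 libraries. Points are libraries, grey lines join the control and tumor-associated pads of 1 mouse, the dashed line is obese mouse 4, and black bars are group means. Ly6a and Cilp rise along every line, and the dashed line falls steeply for Dpp4, Pi16, Fap, Acta2 and Tagln.

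The first question was whether the injected tumor changed these genes in the fat beside it. In lean mice the tumor-associated pads had higher levels of 2 of the 10 genes, Ly6a and Cilp, and lower levels of none, where 4.18% of all 14458 genes tested were called in either direction and 3.27% were called higher. In obese mice Ly6a, Cilp and Postn, 3 of 10, were higher and none was lower, against 54.5% of all genes called in either direction and 26.8% called higher. The members called in obese mice, 3 of 10, were thus near the share of all genes called higher and below the share called in either direction, and the count in lean mice rests on 2 genes. Ly6a and Cilp also stand in the authors' list of genes raised by the tumor in lean mice, a list made from these same libraries, so that their calls are no independent evidence of direction. Groups did not overlap for 3 of the 10 genes in lean mice (Ly6a, Cilp and Postn) and for 1 (Ly6a) in obese mice, against 8.36% and 19.6% of all genes. In these bulk samples a larger share of cells of a type and more RNA per cell cannot be told apart.

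Ly6a encodes SCA-1, a surface protein used to sort mesenchymal progenitors that is also found on endothelial and blood-forming cells. Its level in the lean control pads of mice 0, 2, 3, 6 and 9 was 117, 99.5, 127, 63.5 and 105 CPM. In the tumor-associated pads of the same mice, in the same order, it was 364, 538, 362, 164 and 233 CPM. All 5 tumor-associated libraries lay above all 5 controls, and the mouse with the lowest control level also had the lowest tumor-associated level. The log2 fold change was 1.70 ± 0.24 (SE), or 3.24-fold (edgeR's quasi-likelihood test, Benjamini-Hochberg adjusted p = 0.0003), and Ly6a was higher in 5 of 5 mice. In obese mice its control level ran narrowly from 90.1 to 112 CPM with a median of 103 CPM, and its tumor-associated level from 174 to 305 CPM with a median of 248 CPM. These groups did not overlap either, and the log2 fold change was 1.27 ± 0.22, or 2.41-fold (edgeR adjusted p = 0.0001), with 6 of 6 mice higher. The call held when any single library was left out, with log2 fold changes from 1.44 to 1.87 in lean and from 1.20 to 1.33 in obese mice. Macrophage markers rose in the same pads, from a sum of 681 to 1404 CPM in lean control to 1505 to 3225 CPM in lean tumor-associated, and from 1008 to 1450 CPM to 1443 to 4322 CPM in obese mice; their part in the rise of Ly6a was not tested. Ly6a (chr15:74994877-74998031, minus strand, GRCm38) lies in a family of similar genes, and how reads shared within it were counted is not given in the sources used here.

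Cilp encodes cartilage intermediate layer protein, a secreted matrix protein that binds TGF-beta. It showed the largest fold change of the 10 genes in both tumor comparisons. Its lean control pads held 13.0, 12.4, 14.4, 4.93 and 30.2 CPM, and the tumor-associated pads of the same mice 132, 135, 56.2, 30.5 and 141 CPM. The groups did not overlap, although the highest control (mouse 9) and the lowest tumor-associated pad (mouse 6) were close, at 30.2 and 30.5 CPM. The log2 fold change was 2.72 ± 0.48, or 6.58-fold (edgeR adjusted p = 0.0022), and it was positive in 5 of 5 mice. In obese control pads Cilp ranged from 27.5 to 78.2 CPM (median 41.6 CPM) and in obese tumor-associated pads from 66.7 to 247 CPM (median 167 CPM). Only the tumor-associated pad of mouse 4 lay within the range of the controls. The log2 fold change was 1.90 ± 0.41, or 3.74-fold (edgeR adjusted p = 0.0008), with 6 of 6 mice higher, and 2.08 without both pads of mouse 4 (edgeR adjusted p = 0.0009). All 22 fits that left out 1 library kept both calls.

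Postn encodes periostin, a matrix protein of fibroblasts in wounds, fibrosis and tumors. In lean control pads it stood at 631, 513, 577, 839 and 811 CPM, and in the tumor-associated pads of the same mice at 1226, 1173, 1088, 1268 and 1354 CPM. The groups did not overlap and 5 of 5 mice were higher, yet the log2 fold change of 0.86 ± 0.28 missed the threshold (edgeR adjusted p = 0.102). It passed under DESeq2 (adjusted p = 0.0453), in a fit to the lean groups alone (edgeR adjusted p = 0.0077) and without both pads of obese mouse 4 (edgeR adjusted p = 0.0312), with a log2 fold change of 0.84 in each of these fits. In obese mice Postn ran from 559 to 1819 CPM (median 1012 CPM) in control and from 882 to 2982 CPM (median 1504 CPM) in tumor-associated pads. The groups overlapped, and mouse 4 held both the highest control level and the lowest tumor-associated level. The log2 fold change was 0.67 ± 0.26, or 1.59-fold (edgeR adjusted p = 0.034), and 5 of 6 mice were higher. This call was the least firm of those made in the tumor comparisons. With the mouse as a block the adjusted p was 0.0521, under upper-quartile scaling 0.0542, in a fit to the obese groups alone 0.102, without the 3 libraries rich in B cell markers it was 0.140, and in 6 of the 22 fits that left out 1 library, those without the obese control pads of mice 0, 1, 3 or 8 or the obese tumor-associated pads of mice 0 or 8, it lay between 0.0503 and 0.156. Without both pads of mouse 4 it was 0.0016, at a log2 fold change of 1.01.

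The stretches just before the start sites of Cilp and Postn are shown because these matrix genes were called higher in obese tumor-associated pads, Postn less firmly than Cilp. They are the 250 bases before the RefSeq start (build GRCm38.p6), on the plus strand, at chr9:65264930-65265179 for Cilp and at chr3:54360857-54361106 for Postn, which has a second RefSeq window. Capitals mark TATATAA, which begins 30 bases before the Cilp start and 28 bases before the Postn start (the start site is counted as 0). Searched on both strands, TATATAA is found in 3.22% of the 32544 RefSeq promoter windows of 300 bases. It also begins 8 bases after the start of Acta2, which was not called in either tumor comparison. The second Postn window held no TATATAA. Whether the motif has a part in the levels was not tested.
Cilp: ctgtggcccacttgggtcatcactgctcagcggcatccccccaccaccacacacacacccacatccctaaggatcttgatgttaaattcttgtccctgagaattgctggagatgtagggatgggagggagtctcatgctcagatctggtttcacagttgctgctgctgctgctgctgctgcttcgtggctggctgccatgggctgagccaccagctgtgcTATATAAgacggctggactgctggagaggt
Postn: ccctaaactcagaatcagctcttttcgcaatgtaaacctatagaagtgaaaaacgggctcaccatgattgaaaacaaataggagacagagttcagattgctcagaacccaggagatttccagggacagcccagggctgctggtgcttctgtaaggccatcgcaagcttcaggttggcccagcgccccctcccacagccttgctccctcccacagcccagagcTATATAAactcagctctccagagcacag

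Dpp4 and Pi16, the markers of the interstitial progenitors, were not called in either tumor comparison. Dpp4 encodes a cell surface peptidase that trims chemokines and incretins and is also carried by T cells. It measured 122, 85.9, 77.2, 33.4 and 87.5 CPM in lean control pads and 107, 126, 145, 88.8 and 110 CPM in the tumor-associated pads of the same mice, with a log2 difference of 0.51 ± 0.41 (edgeR adjusted p = 0.673). In obese mice it ran from 44.6 to 132 CPM in control pads (median 54.2 CPM) and from 12.3 to 104 CPM in tumor-associated pads (median 63.6 CPM), a log2 difference of -0.24 ± 0.37 (edgeR adjusted p = 0.61) that was -0.11 without both pads of mouse 4 (edgeR adjusted p = 0.796). The highest Dpp4 levels among the obese controls, 132 and 115 CPM, were in mice 1 and 3, whose T cell markers summed to 244 CPM each against 6.44 to 10.4 CPM in the other 4, and without the 3 libraries rich in B cell markers the difference was 0.18 (edgeR adjusted p = 0.72); the part of T cells was not tested.

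Pi16 encodes peptidase inhibitor 16, a protein of progenitor-like fibroblasts. It measured 176, 114, 163, 59.8 and 141 CPM in lean control and 186, 191, 264, 149 and 183 CPM in lean tumor-associated pads. Every lean mouse was higher on the tumor side, by a log2 difference of 0.57 ± 0.47 that was not called (edgeR adjusted p = 0.686). In obese mice Pi16 ran from 75.9 to 159 CPM (median 121 CPM) in control and from 4.19 to 138 CPM (median 80.7 CPM) in tumor-associated pads, where 5 of 6 mice were lower. The log2 difference of -0.51 ± 0.43 was not called (edgeR adjusted p = 0.332), and the value of mouse 4, 4.19 CPM, was far under the next lowest of all 22 libraries, 59.0 CPM. Without both pads of mouse 4 the difference was -0.31 (edgeR adjusted p = 0.38).

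Fap encodes fibroblast activation protein, a peptidase of the same family as DPP4. Both genes lie on chromosome 2, Dpp4 at chr2:62330073-62412231 and Fap at chr2:62500943-62574075, both on the minus strand and 88.7 kb apart. Fap stood at 45.1, 40.1, 34.3, 40.1 and 49.7 CPM in lean control pads and at 59.7, 67.6, 50.7, 44.9 and 78.5 CPM in the tumor-associated pads of the same mice. It was higher in 5 of 5 lean mice, with a log2 difference of 0.53 ± 0.26 that was not called (edgeR adjusted p = 0.338). In obese mice it ran from 32.9 to 49.8 CPM in control and from 11.2 to 49.8 CPM in tumor-associated pads, higher in 2 of 6 mice and with a log2 difference of -0.29 ± 0.24 (edgeR adjusted p = 0.32). Without both pads of mouse 4 the difference was -0.088 (edgeR adjusted p = 0.724), and without the 3 libraries rich in B cell markers it was -0.52 (edgeR adjusted p = 0.118).

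Pdgfra and Pdgfrb, the receptors for platelet-derived growth factors, had the smallest differences of the 10 genes in lean mice. Pdgfra measured 303, 209, 269, 209 and 324 CPM in lean control and 295, 373, 310, 211 and 344 CPM in lean tumor-associated pads (log2 difference 0.22 ± 0.16, edgeR adjusted p = 0.603). Pdgfrb measured 126, 125, 140, 144 and 138 CPM and 153, 163, 134, 127 and 144 CPM in these groups (0.10 ± 0.12, edgeR adjusted p = 0.855). In obese mice Pdgfra had medians of 258 CPM in control and 252 CPM in tumor-associated pads (-0.04 ± 0.15, edgeR adjusted p = 0.836). Pdgfrb had obese medians of 170 and 143 CPM and was lower on the tumor side in 5 of 6 mice (-0.19 ± 0.11, edgeR adjusted p = 0.151). It was called lower once the 3 libraries rich in B cell markers were left out (-0.31, edgeR adjusted p = 0.0092), or the obese control pad of mouse 1 alone (-0.28, edgeR adjusted p = 0.0308). All groups of both genes overlapped.

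Acta2 and Tagln encode smooth muscle actin and transgelin, proteins of contractile cells that also appear in activated fibroblasts, in pericytes and in the myoepithelium of the mammary gland. Acta2 stood at 321, 201, 250, 346 and 296 CPM in lean control pads and at 270, 389, 272, 387 and 411 CPM in the tumor-associated pads of the same mice, a log2 difference of 0.29 ± 0.31 (edgeR adjusted p = 0.807). In obese mice Acta2 ran from 207 to 483 CPM (median 333 CPM) in control and from 62.2 to 324 CPM (median 244 CPM) in tumor-associated pads. It was lower in 5 of 6 obese mice, by a log2 difference of -0.57 ± 0.28 (edgeR adjusted p = 0.0902), and was called lower when the tumor-associated pad of mouse 1 was left out (-0.73, edgeR adjusted p = 0.0379) or the 3 libraries rich in B cell markers (-0.75, edgeR adjusted p = 0.0476). Tagln ran from 76.6 to 144 CPM in lean control, 102 to 175 CPM in lean tumor-associated, 68.9 to 176 CPM in obese control and 22.6 to 117 CPM in obese tumor-associated pads. It differed by 0.41 ± 0.32 in lean (edgeR adjusted p = 0.649) and by -0.30 ± 0.29 in obese mice (edgeR adjusted p = 0.393), or by -0.13 without both pads of mouse 4 (edgeR adjusted p = 0.658). Its reads are uncertain, since Tagln (chr9:45929619-45936058, minus strand) overlaps Pcsk7 on the other strand and the strand setting of the counting is not given in the sources used here; reads of Acta2 may likewise be shared with other actin genes. Mammary basal epithelium markers, which share the myoepithelial source of Acta2, summed to 170 to 551 CPM in obese control and 24.6 to 132 CPM in obese tumor-associated pads, and their part was not tested.

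Serum response factor (SRF) drives contractile genes through the CArG box, a short motif known from the promoters of actin genes. The RefSeq window of Acta2 held no perfect CArG box but 2 that carry 1 G or C inside, a form present in 8.46% of the 32544 windows against 1.64% for the perfect box. Stretches of 30 bases around them, on the minus strand of GRCm38.p6 at chr19:34255438-34255467 and chr19:34255388-34255417, are shown with the matched 10 bases in capitals. They show how closely the letters of this promoter resemble the box, and whether SRF was bound there was not measured.
Acta2 distal: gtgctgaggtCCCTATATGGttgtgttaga
Acta2 proximal: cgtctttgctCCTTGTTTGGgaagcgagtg

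**Figure D2:**
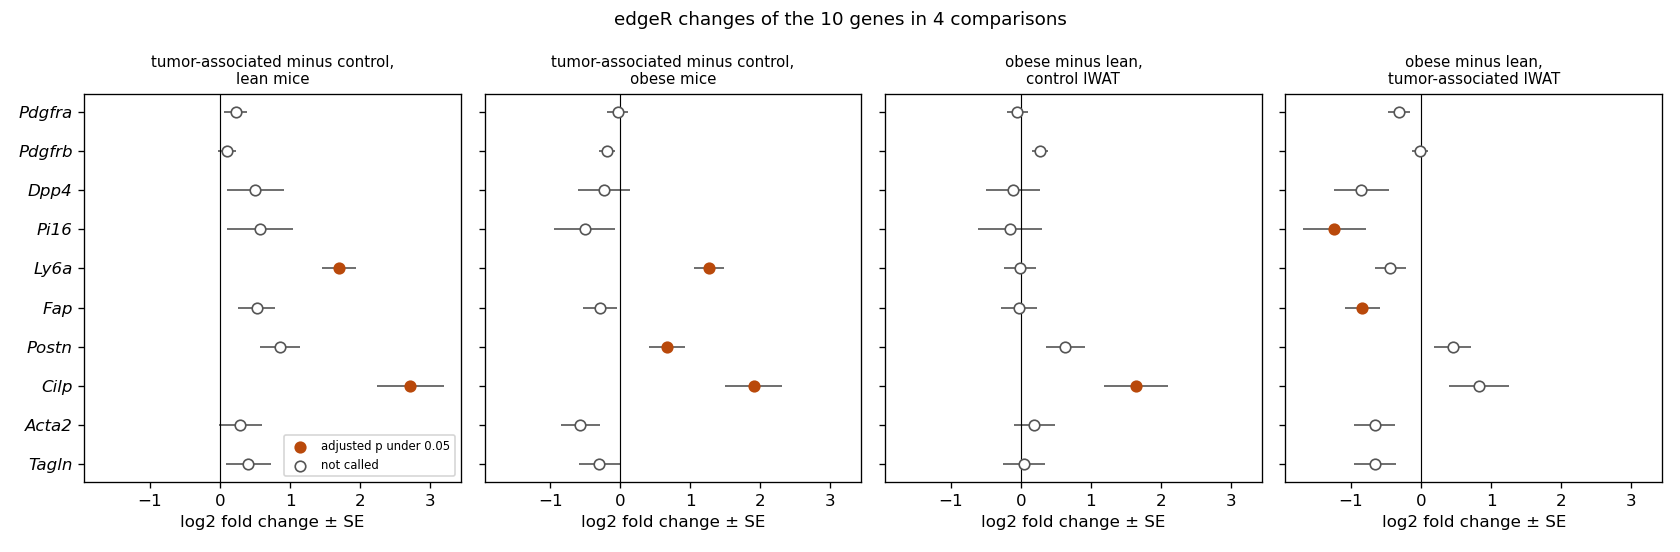
Log2 fold change ± SE (edgeR) of the 10 genes in the 2 tumor comparisons and the 2 diet comparisons. Filled points passed an adjusted p of 0.05. Ly6a and Cilp are filled in both tumor comparisons, Postn in obese mice, Cilp in control IWAT, and Pi16 and Fap, on the negative side, in tumor-associated IWAT.

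A further question was how these genes differed between obese and lean mice, in control and in tumor-associated pads. The paper reports larger tumors in the obese than in the lean mice. The control pads came from the same tumor-bearing mice. Diet and tumor size therefore cannot be told apart in either pad. In control IWAT 1 of the 10 genes, Cilp, was higher in obese than in lean mice, against 17.1% of all genes called in either direction and 9.54% called higher. The log2 fold change of Cilp was 1.64 ± 0.45, or 3.12-fold (edgeR adjusted p = 0.0169), from a mean of 15.0 ± 9.26 CPM (SD, n = 5) to 46.8 ± 21.1 CPM (n = 6). The highest lean control (30.2 CPM) lay above the 2 lowest obese controls (27.5 and 27.8 CPM). Without the control pad of lean mouse 6, which had the lowest level at 4.93 CPM, the adjusted p was 0.0503. Postn differed by 0.64 ± 0.27 (edgeR adjusted p = 0.112) and Pdgfrb by 0.27 ± 0.12 (edgeR adjusted p = 0.115), and both were called higher without the 3 libraries rich in B cell markers (0.88, edgeR adjusted p = 0.0375, and 0.42, edgeR adjusted p = 0.0067). Pdgfrb was also called without the obese control pad of mouse 1 alone (0.34, edgeR adjusted p = 0.0439). No gene of the 10 had groups without overlap, against 13% of all genes. The other 7 genes differed by between -0.16 and 0.20 on the log2 scale, none of them called.

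In tumor-associated IWAT 2 of the 10 genes, Pi16 and Fap, were lower in obese than in lean mice and none was higher, against 47% of all genes called in either direction and 22.4% called lower. These falls were not particular to the 2 genes. Of 7 general fibroblast genes, Dcn, Mmp2, Lum and Dpt were called lower in the same comparison and Col6a1 was called higher. The median log2 difference of the 7 was -1.05, beside 0.03 over all genes. Pi16 was lower by a log2 fold change of -1.24 ± 0.45 (edgeR adjusted p = 0.0302). The highest obese library (138 CPM) lay below the lowest lean one (149 CPM), which made Pi16 the 1 member of 10 without overlap here, while 24.4% of all genes had groups that did not overlap. Without both pads of mouse 4 the difference was -0.99 (edgeR adjusted p = 0.0083), so the call did not depend on that library. It was lost without the lean tumor-associated pad of mouse 3 or the obese one of mouse 0 (edgeR adjusted p = 0.0724 and 0.0608) and in a fit to these groups alone (edgeR adjusted p = 0.0933).

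Fap was lower by -0.84 ± 0.25 (edgeR adjusted p = 0.01), from a mean of 60.3 ± 13.4 CPM (SD, n = 5) in lean to 33.7 ± 14.9 CPM (n = 6) in obese tumor-associated pads, with overlapping groups. The call held in all 22 fits that left out 1 library, with log2 fold changes from -0.98 to -0.66, but not in the fit to these groups alone (edgeR adjusted p = 0.0567). Dpp4, Acta2 and Tagln differed by -0.85, -0.66 and -0.66 without being called (edgeR adjusted p = 0.0768, 0.068 and 0.0768). Single libraries decided several of these. Dpp4 was called lower without the obese pad of mouse 8 (-1.05, edgeR adjusted p = 0.0383), Acta2 and Tagln without the obese pad of mouse 1 (-0.81 and -0.77, edgeR adjusted p = 0.0297 and 0.0484), and Pdgfra and Ly6a, at -0.31 and -0.44 with all libraries, without the lean pad of mouse 6 (-0.42 and -0.61, edgeR adjusted p = 0.0272 and 0.0166). Cilp and Postn were the members with positive differences, 0.83 ± 0.42 and 0.45 ± 0.27, neither of them called (edgeR adjusted p = 0.111 and 0.18); Postn was called without both pads of mouse 4 (0.58, edgeR adjusted p = 0.0443).

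The obese minus the lean tumor change was tested as an interaction term, in which diet and tumor size likewise cannot be told apart. It was negative for all 10 genes, from -1.08 to -0.19 on the log2 scale, while 52.9% of all genes tested had a negative value, and Postn turned positive (0.17) without both pads of mouse 4. None of the 10 genes was called by edgeR or by DESeq2, against 4.92% of all genes under edgeR, and 1 of them, Fap, had an unadjusted p under 0.05 (-0.81 ± 0.36, edgeR adjusted p = 0.122). A difference between lean and obese mice in the response of these genes to the tumor was therefore not shown. The 4 comparisons share their groups and are not independent of each other.

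**Figure D3:**
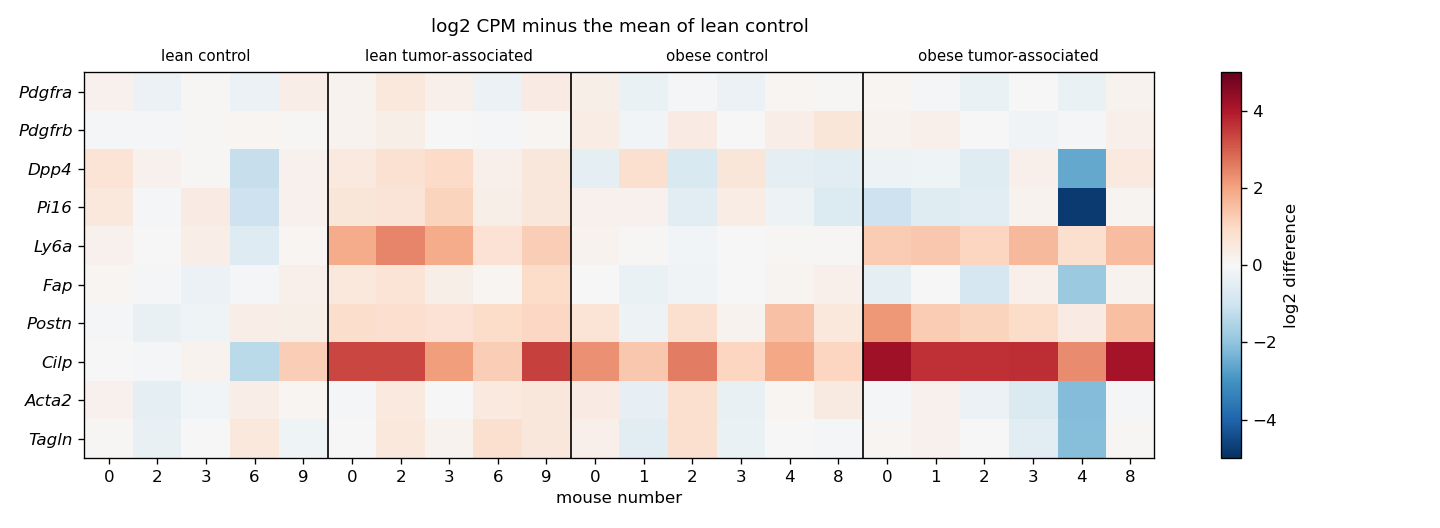
Log2 CPM of each gene in each library minus its mean in lean control IWAT, by group and mouse number. Red is higher and blue lower. The column of obese tumor-associated mouse 4 is dark blue for Pi16 and a lighter blue for Dpp4, Fap, Acta2 and Tagln, and the Cilp row is red in nearly all libraries outside lean control.

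For most of the 10 genes, 1 obese tumor-associated library had the lowest level of its group. In mouse 4 all 10 genes were below the median of the other 5 libraries, by a median of -1.59 on the log2 scale, where the median over all genes tested was -0.01. Dpp4, Pi16, Fap, Acta2 and Tagln were at their lowest of all 22 libraries, 5 of 10 genes, as were 26.6% of all genes. Pi16 was down by -4.20, Dpp4 by -2.36 and Tagln by -2.20, while Pdgfrb and Pdgfra were down by -0.21 and -0.32. A list of germline and embryonic genes, which an earlier look at these data had picked for their high values, summed to 1000 CPM in this library, to between 40.1 and 509 CPM in the other obese tumor-associated libraries to between 5.99 and 85.7 CPM in the obese control libraries and to at most 9.09 CPM in any lean library. Of these 10 genes 7 were also called higher in obese than in lean control IWAT, against 9.54% of all genes. Since they were picked from these data, this count is no independent result. The part of this list in the low levels of mouse 4 was not tested. According to the methods, border material was discarded against contamination. Whether RNA of the injected E0771 cells was present in any pad was not tested. In bulk samples such RNA cannot be told apart from that of the fat, here or in the lists below.

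To describe the genes against the amount of fibroblast RNA, each was also expressed relative to the mean log2 CPM of 7 general fibroblast genes, Dcn, Lum, Dpt, Serpinf1, Col6a1, Col6a2 and Mmp2. On this scale Cilp was higher in tumor-associated pads by 2.19 in lean and 2.29 in obese mice, and Ly6a by 1.12 and 1.63, with no overlap of groups in any of the 4 cases. Postn was higher by 0.38 in lean and 1.05 in obese mice, with overlapping groups in both. Pi16 was lower by -1.15 in obese than in lean tumor-associated pads, with no overlap. The Pi16 difference was -0.67 without the tumor-associated library of mouse 4, and -0.21 with Dcn alone as the reference. Fap was lower by -0.35 between the same groups, which overlapped. Pdgfra was lower in lean tumor-associated than in lean control pads on this scale (-0.28) and lower in obese than in lean control pads (-0.32), with no overlap of groups in either case. With Dcn alone as the reference these Pdgfra differences were -0.14 and -0.014. Serpinf1, Col6a1 and Col6a2 of the reference were themselves called higher in obese than in lean control IWAT. The reference genes themselves did not move together. Col6a1, a collagen VI chain, was higher in tumor-associated pads of obese mice (log2 fold change 0.62 ± 0.14, edgeR adjusted p = 0.0013), whereas Dcn, which encodes the collagen-binding proteoglycan decorin, was lower (-0.89 ± 0.33, edgeR adjusted p = 0.028). With Dcn alone as the reference, Fap was higher rather than lower in obese than in lean tumor-associated pads, by 0.60, and the sign of small relative differences thus depends on the reference.

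The 10 genes fell into sets that varied together from library to library. After subtraction of each group's mean, Pearson's r of log2 CPM over 22 libraries was 0.956 between Acta2 and Tagln and 0.895 between Dpp4 and Pi16, and it stayed at 0.895 and 0.823 without the tumor-associated library of obese mouse 4. Between the sets that library decided the sign. Pi16 and Acta2 had r = 0.521 with it and -0.527 without it, and Dpp4 and Tagln 0.255 and -0.672. Fap followed Pi16 with r = 0.746, or 0.204 without mouse 4. Pdgfra and Cilp (0.745 and 0.730) and Pdgfra and Ly6a (0.664 and 0.639) changed little. These correlations describe libraries that share mice, depth and normalization, and no test was made of them.

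**Figure D4:**
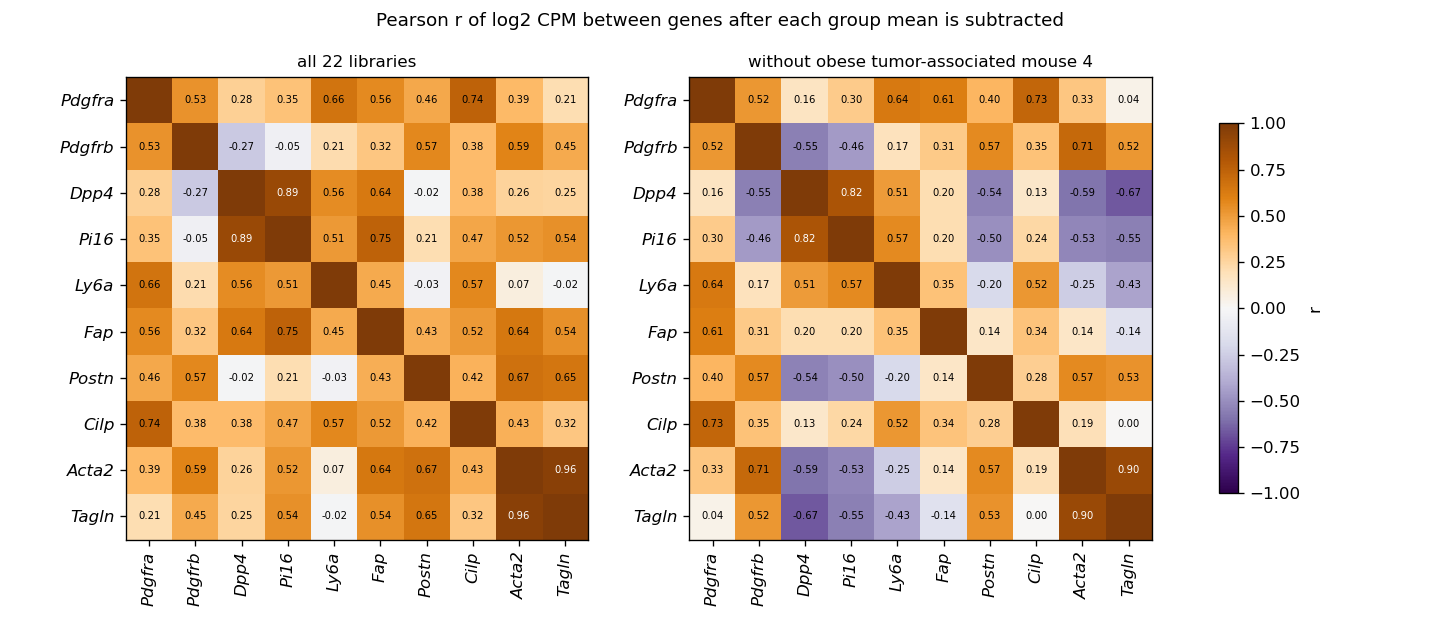
Pearson's r between the 10 genes over all 22 libraries (left) and without obese tumor-associated mouse 4 (right), after each group's mean log2 CPM was subtracted. Dpp4 with Pi16 and Acta2 with Tagln keep values above 0.8 in both panels, and the values between these pairs turn negative on the right.

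The genes most like each member over the 22 libraries were picked by the same r, and for 5 members the first of them changed without the tumor-associated library of obese mouse 4. Acta2 was most like Myl9, a myosin light chain of smooth muscle (r = 0.921), but without mouse 4 it was most like Csrp1 (0.930) and Myl9 had 0.807. Tagln was most like Tgfb1i1 (0.941) and Cnn1, which encodes calponin (0.897), and without mouse 4 most like Actg2 (0.858), with 0.847 for Tgfb1i1 and 0.744 for Cnn1. Postn was most like Col1a1, a chain of type I collagen (0.847), Cd109 (0.841) and Cthrc1, a secreted protein of activated fibroblasts (0.823), and without mouse 4 most like Lrrc15 (0.858). Cilp was most like Anxa8 (0.854), Nox4, an oxidase induced by TGF-beta (0.843), and Ctgf, a matrix-associated growth factor (0.835), and without mouse 4 most like Nox4 (0.895). Ly6a was most like Atp6ap2 (0.879) and Il1rl1, the IL-33 receptor (0.879). Dpp4 was most like Tspyl4 (0.949) and Add3 (0.942), Pi16 like Lrrn4cl (0.966) and Fap like Sulf2 (0.952), and these 4 values were 0.894, 0.894, 0.843 and 0.887 without mouse 4, where Pi16 was most like Ccbp2 (0.874). Pdgfra was most like Mitf (0.913) and Pdgfrb like Idh2, a mitochondrial dehydrogenase (0.853).

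Other genes of the same programs were counted from lists, which were chosen with earlier results of these data known. Their counts are to be read against the shares of all genes called, 3.27% higher in lean mice, and 26.8% higher and 27.7% lower in obese mice. Of 19 other activated fibroblast genes tested, 6 rose and none fell in lean tumor-associated IWAT, and 11 rose and none fell in obese tumor-associated IWAT. Their median log2 fold changes were 1.06 and 1.12, beside 0.01 and -0.02 over all genes. In the same obese pads 7 of 7 adipocyte markers fell (median log2 fold change -1.52) and 7 of 7 macrophage markers rose (median 1.57). The germline and embryonic genes rose too (10 of 10, median 3.97), but they had been picked for high values in these data, so their count is no independent result. The part of these lists was not tested. Cthrc1 rose by 2.18 ± 0.52 in lean and 3.41 ± 0.47 in obese mice (edgeR adjusted p = 0.0205 and 2.09e-05), and Col12a1, a collagen of strained tissue, by 1.79 ± 0.38 in lean mice (edgeR adjusted p = 0.0091). Lrrc15, a marker of tumor fibroblasts, rose by 3.34 ± 0.62 in obese mice (edgeR adjusted p = 0.0002). The counts were 7 and 12 without both pads of mouse 4, and the lean count of 6 was 2 without the lean control pad of mouse 2 or 3 or the lean tumor-associated pad of mouse 0 or 2, and 3 without the lean control pad of mouse 6.

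Of 13 other interstitial progenitor genes, 3 rose and none fell in lean mice, and 3 rose and 2 fell in obese mice, with median log2 fold changes of 0.50 and 0.16. In obese mice the share that rose was near that of all genes, and the share called in either direction was below the 54.5% of all genes. Has1, a hyaluronan synthase, rose by 3.25 ± 0.86 in lean and 3.75 ± 0.71 in obese mice (edgeR adjusted p = 0.0359 and 0.0003), while Pcolce2, an enhancer of procollagen processing, fell by 1.56 on the log2 scale in obese mice (edgeR adjusted p = 0.0006). Has1 also stands in the authors' list of genes most raised by the tumor, made from these same libraries, so that its calls are no independent evidence of direction. The lean count of 3 was 1 without the 3 libraries rich in B cell markers, 0 without the lean tumor-associated pad of mouse 0 or 2, and 1 without that of mouse 3 or 9 or the lean control pad of mouse 2, 3, 6 or 9. The obese count of 2 that fell was 1 without the obese control pad of mouse 1 or 3 or the obese tumor-associated pad of mouse 0 or 2. Of 10 preadipocyte genes, none was called in lean mice by edgeR or DESeq2 and 3 had an unadjusted p under 0.05, and in obese mice 1 rose and 4 fell (median -0.32), so that the share called in either direction was near that of all genes. Fmo2 and Zfp423, a regulator of preadipocyte commitment, fell by 1.64 and 1.06 on the log2 scale in obese mice (edgeR adjusted p = 0.0006 and 0.0022).

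Smooth muscle and pericyte genes gave no call in lean mice by edgeR or DESeq2, with 1 of 15 at an unadjusted p under 0.05, while 11 of 15 fell and none rose in obese tumor-associated IWAT, with a median log2 fold change of -1.08, against 27.7% of all genes called lower. The difference between the obese and lean tumor changes was called for 1 of the 15, Synpo2. Synpo2 and Lmod1, an actin nucleator of smooth muscle, fell by 1.55 and 1.33 (edgeR adjusted p = 0.0007 and 0.0052). Without both pads of mouse 4 the count was 10 of 15. Endothelial markers fell in the same pads, 6 of 6, from sums of 888 to 1229 CPM in obese control to 272 to 1073 CPM in obese tumor-associated IWAT. Of the SRF partners, Srf itself rose in obese mice (0.65 ± 0.15, edgeR adjusted p = 0.0011), while Myocd, its smooth muscle coactivator, and Mkl2 fell by 1.09 and 0.37 (edgeR adjusted p = 0.0264 and 0.0324); neither of the latter was called without both pads of mouse 4.

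Among the 4 PDGF ligands none was called in lean mice by edgeR or DESeq2, and 0 had an unadjusted p under 0.05. In obese tumor-associated IWAT Pdgfa rose (0.73 ± 0.26, edgeR adjusted p = 0.0231) and Pdgfb fell by 0.62 (edgeR adjusted p = 0.0379); Pdgfa was not called without both pads of mouse 4 or without the 3 libraries rich in B cell markers, and Pdgfb not without both pads of mouse 4. Each call was also lost in several of the fits that left out a single obese library. Of 11 TGF-beta ligands, receptors and targets, none was called in lean mice by edgeR or DESeq2 and 3 had an unadjusted p under 0.05, while in obese mice Inhba, an activin subunit (1.68 ± 0.43), and Tgfb1 (0.99 ± 0.13) rose and Tgfbr3 and Tgfbr1 fell by 0.51 and 0.23 (edgeR adjusted p = 0.0028, 1.38e-05, 0.0013 and 0.0373), fewer in share than the 54.5% of all genes called. Of the relatives of DPP4 and FAP, 4 of 6 were tested. None was called in lean mice by edgeR or DESeq2, with 1 at an unadjusted p under 0.05, and in obese mice Prep, Dpp9 and Dpp7 rose, Prep by 1.00 ± 0.17 and Dpp9 by 0.96 ± 0.12 (edgeR adjusted p = 0.0001 and 6.18e-06), while Dpp8 fell by 0.23 (edgeR adjusted p = 0.0077).

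**Figure D5:**
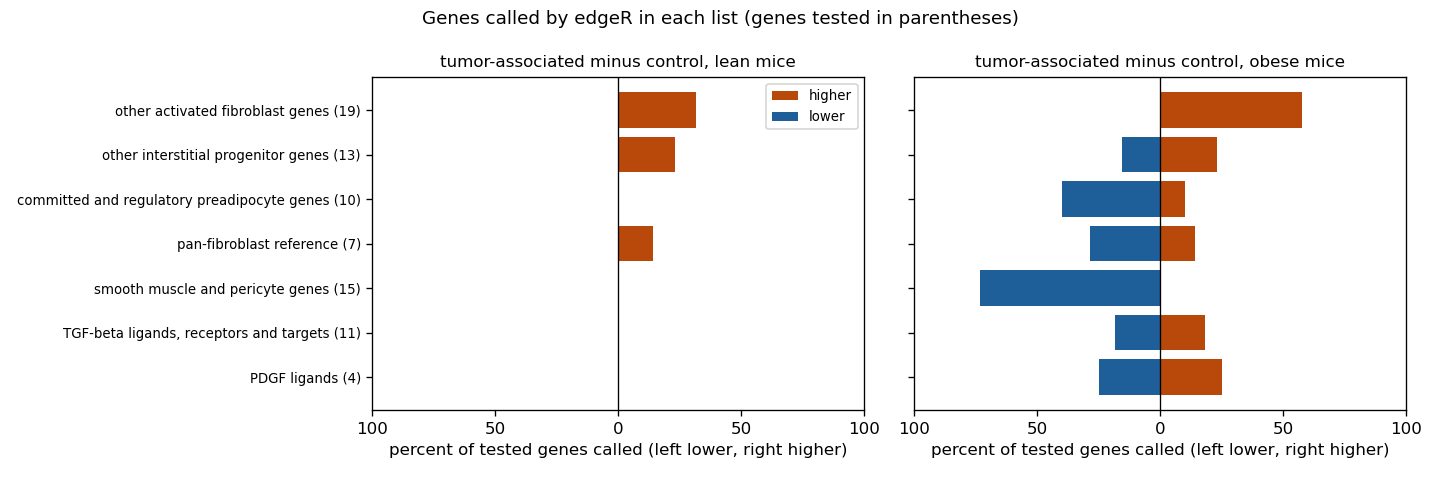
Percent of the tested genes of each list called higher (right of 0) or lower (left of 0) in tumor-associated than in control IWAT, in lean (left panel) and obese mice (right panel). Activated fibroblast genes lie to the right in both panels, and smooth muscle and pericyte genes extend to the left in the panel of obese mice, where 54.5% of all genes were called against 4.18% in lean mice.

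Where the lists were compared between diets in tumor-associated IWAT, 6 of 19 activated fibroblast genes were higher in obese mice and none was lower, against 24.7% of all genes called higher and 22.4% called lower. The largest difference was that of Tnc, which encodes tenascin C (2.84 ± 0.40, edgeR adjusted p = 3e-05). Of 13 interstitial progenitor genes 1 was higher, a call lost when any 1 lean tumor-associated pad was left out, and 3 were lower (1 without the lean pad of mouse 0 or 3), among them Smpd3 (-1.83 ± 0.47, edgeR adjusted p = 0.0036). Of 15 smooth muscle and pericyte genes 1 was higher, a call lost in most fits that left out a library, and 6 were lower, among them Cnn1 (-1.82 ± 0.38, edgeR adjusted p = 0.0007). The median log2 differences were 0.61, -0.37 and -0.69, beside 0.03 over all genes. Of the 7 general fibroblast genes 4 were lower and 1 was higher, with a median of -1.05. Mammary luminal and basal markers were also lower in these pads, 6 of 6 and 5 of 5, and their part was not tested. Tumor size differed between the diets as well, and it cannot be told apart from diet here.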

How the data were processed

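RNA was depleted of ribosomal RNA and sequenced. According to the methods and the submitters' processing notes, reads were checked with FastQC, trimmed with prinseq, aligned to mm10 with STAR 2.4.0f, and counted with HTSeq. The HTSeq version, strand setting and annotation are not given in the sources used here. The authors deposited raw counts per gene, with no normalization. The 5 lines without a gene (57.0% to 65.9% of reads) were left out. Depth on genes was 5759775 to 8598108 counts, and no pair of libraries of a group agreed within counting noise (smallest chi-square per degree of freedom 5.69).

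The members and lists were chosen with earlier results of these data known. From the deposited counts, edgeR 4.0.16 (R 4.3.3; TMM scaling, filterByExpr by group) fitted the quasi-likelihood model to all 22 libraries in 4 groups without a block, and a Benjamini-Hochberg adjusted p under 0.05 over the 14458 genes tested was called. CPM used TMM-scaled totals, and log2 CPM a prior count of 2. Fold changes between tumor-associated and control pads, between diets, and their interaction made 5 comparisons. Both pads came from the same mouse: same-mouse pads had a median correlation of deviations from the group mean of 0.51 in lean (5 of 5 pairs over 0.1) and 0.17 in obese mice (4 of 6). As alternatives, the scaling and the count filter were changed, DESeq2 1.42.0 was used, only the groups of a comparison were fitted, mouse was added as a block, and libraries were omitted one at a time. The 2 reductions without obese mouse 4 and without 3 libraries rich in B cell markers were chosen after seeing the data. On simulated counts for 14458 genes in the lean comparison, edgeR recovered 70 of 100 genes changed by 1 and 94 of 100 changed by 2 on the log2 scale. For the interaction it recovered 53 and 85 of 100. The simulated libraries were independent, with no effect of the mouse, unlike the real ones. Named list genes were the up to 2 called with the largest rise and fall in each tumor comparison and 1 each way in each diet comparison, of which the text gives a selection, together with other called list genes. The 3 genes of highest correlation per member were ranked, and the first of these are printed. Each mouse gave 1 library per pad. The main fit had no mouse term and took the libraries as independent. Its p-values measure the spread between mice within groups, not the spread of the change within a mouse. Positions are from GENCODE M21 on GRCm38. RefSeq windows were found for Dpp4, Postn, Pdgfra, Cilp, Pi16 and Acta2.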

Additional observations from a re-analysis of the deposited data

How the results depend on the processing

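Of the 420 values for single members under settings other than leaving out a library, 395 kept their direction and side of the threshold. The calls of Ly6a and Cilp in both tumor comparisons held under all alternatives run. Genes called in lean mice (605) became 918 under DESeq2, 1437 with the groups alone and 924 without mouse 4, and the interaction (711 genes) 2365 under DESeq2, 18 without a filter, 184 without mouse 4 and 1170 without the 3 libraries rich in B cell markers. Members called between diets numbered 3 in control IWAT without those libraries, and 4 under upper-quartile scaling and 0 with the groups alone in tumor-associated IWAT. Directions turned for differences near 0: without mouse 4, Pdgfra in obese mice (0.022), Pdgfrb between diets in tumor-associated pads (0.0027) and the Postn interaction (0.17); without the libraries rich in B cell markers, Dpp4 in obese mice (0.18), Pdgfra (0.067) and Fap (0.042) between diets in control pads, and Pdgfrb in tumor-associated pads (0.026); under upper-quartile scaling, Tagln in control pads (-0.012). With Dcn alone as the reference, relative differences were 2.41 (Ly6a), 1.83 (Postn) and 3.07 (Cilp) in obese mice, and -0.21 (Pi16) and 0.60 (Fap) between diets. The likeness of Pi16 and Lrrn4cl was 0.853 by Spearman and 0.843 without mouse 4. The cause of these shifts was not tested.

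With single libraries left out, genes called ranged from 183 to 952 in lean, 6915 to 8403 in obese, 1606 to 3428 in control, 5902 to 7464 in tumor-associated IWAT and 1 to 3568 for the interaction, and the lean count was 346, 255 and 252 without the control pads of mice 2, 3 and 6, 228, 183 and 353 without the tumor-associated pads of mice 0, 2 and 3, and 952 without the tumor-associated pad of obese mouse 4. The count in control IWAT was 1606 without the control pad of lean mouse 6, and the interaction count rested on nearly every library. In the same order of comparisons, members called ranged from 2 to 2, 2 to 4, 0 to 2, 1 to 4 and 0 to 0. Between diets in control pads, Dpp4 ran from -0.35 to 0.085, Fap from -0.086 to 0.046, Ly6a from -0.14 to 0.080, Pdgfra from -0.12 to 0.038 and Tagln from -0.16 to 0.20. Pdgfra in obese mice ran from -0.11 to 0.028, Pdgfrb between diets in tumor-associated pads from -0.061 to 0.029 and the Postn interaction from -0.43 to 0.039. The mouse as a replicate block ended the Postn call in obese mice (0.68, edgeR adjusted p = 0.0521) and changed no other member's call.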
